A study of Mus musculus with 15 samples.

Results

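The genes described here encode 9 surface proteins of tumor cells that drugs, antibodies or radioligands are directed at: Ncam1, Sez6, Cd276, Cd24a, L1cam, Sstr1, Sstr2, Sstr3 and Sstr5. They were chosen by name, and all 9 were found among the 55359 genes of the expression matrix. RNA was sequenced after poly-A selection from 15 mouse samples in 5 groups of 3, and values are counts normalized for sequencing depth, given as mean ± SD with n = 3. The question was how much RNA of each antigen was present in each tumor line, in culture and as an allograft, and in normal lung.

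The lines and the allograft recipients came from the QKO mouse strain, whose alleles include Rb1 F/F, Trp53 F/F and Rbl1-/-. 46LCNEC_cell was a single adherent line from a large cell neuroendocrine lung carcinoma (LCNEC) that arose after intratracheal infection with Ad-CMVcre, an adenovirus whose Cre is driven by a promoter active in most cells. 57SCLC_cell was a single line from a small cell lung carcinoma (SCLC), grown in suspension, from a mouse given Ad-K5cre, in which a keratin promoter drives Cre. Cre deletes the floxed segments, while the Rbl1 null alleles belong to the strain itself. 46LCNEC_allo and 57SCLC_allo were tumors grown under the skin of immunocompetent QKO recipients, so they hold host cells beside tumor cells. Lung was normal lung tissue of mice born in the same litters as the recipients. The full genotype of these lung donors and all ages were not given in the sources used here. The samples are named by their dishes (A, B and C), flasks (A, B and C), tumor numbers and lungs (CT3, CT4 and CT5). As dishes or flasks of a line share that line, and its allograft tumors grew from it, p-values measure only the spread between these samples. They do not measure the spread between lines or between primary tumors of a type.

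These antigens belong to several families. Ncam1 and L1cam are immunoglobulin-type adhesion molecules of neurons and neuroendocrine cells, and Sez6 is a transmembrane protein of neurons that antibody-drug conjugates against SCLC are directed at. Cd276 is a B7-family protein that is found on many carcinomas. Cd24a is a small, heavily glycosylated protein anchored in the cell membrane that can signal to Siglec receptors on immune cells. The Sstr genes encode receptors for somatostatin, which couple to inhibitory G proteins and are bound by radiolabelled somatostatin analogs in neuroendocrine tumors.

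Reads counted per sample ranged from 9480244 to 44876572, and flask C of 57SCLC_cell stood apart, with a chi-square per degree of freedom of 144 against flask A, where flasks A and B had 2.80. Without flask C, every call in the 57SCLC_cell comparisons with Lung and with 46LCNEC_cell was kept. All 8 markers of the neuroendocrine list had over 3 reads in every 57SCLC library, with summed levels from 62749 to 104508 normalized counts. In 46LCNEC, 3 of the 8 did. The other 5 had 3 reads or fewer in at least 1 library of each 46LCNEC group. All 8 together summed to 2278 to 2932 in dishes and 43.7 to 836 in tumors, below the 13179 to 16651 of Lung. This sum does not rank the groups by neuroendocrine content, as single genes can carry it. Chga, a granin gene, averaged 4.23 normalized counts in 46LCNEC_cell, 10.6 in 46LCNEC_allo and 6.54 in Lung. For the protein, the authors reported chromogranin A staining in allografts of the LCNEC line. The fibroblast list summed to between 9621 and 10015 in 46LCNEC_cell, 161918 and 373886 in 46LCNEC_allo, 98.7 and 126 in 57SCLC_cell, 10631 and 15194 in 57SCLC_allo and 15225 and 17403 in Lung. Leukocyte markers reached at most 52.3 in cells, from 6563 to 13056 in 46LCNEC_allo, from 1820 to 3131 in 57SCLC_allo and from 8002 to 8690 in Lung, with Itgam at 0 in every group. Endothelial markers were at most 385 in cells, from 5481 to 9416 in 46LCNEC_allo, from 2681 to 3732 in 57SCLC_allo and from 72066 to 82279 in Lung. Lung epithelium, B cell and red cell lists were highest in Lung, with sums of at least 286483, 1990 and 14362 there and at most 551, 344 and 2281 in the tumor groups. Neutrophil markers summed to between 1257 and 3265 in Lung and overlapped with tumor 321 of 46LCNEC_allo, at 1308. Schwann cell markers summed to between 568 and 9181, and skeletal muscle markers to at most 464.

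Per kilobase of exon, Cd24a was the most abundant member in 57SCLC, with a mean level of 8512 normalized counts per kilobase in cells and 8485 in allografts. In 57SCLC_cell, Sez6 followed with 812, Ncam1 with 581, L1cam with 480, Cd276 with 400, Sstr5 with 205, Sstr3 with 61.6 and Sstr1 with 2.42. The order of Sez6 and Ncam1 depended on the length used: per kilobase of exon outside the spans of other genes, Ncam1 had 865 and Sez6 852. The order differed in 46LCNEC_cell, where Ncam1 led with 3403, before Cd24a with 2175 and Cd276 with 647, and L1cam stood at 17.2 and Sstr3 at 4.32. In 46LCNEC_allo, Cd276 had the highest level, with 1139 normalized counts per kilobase, before Ncam1 with 549 and Cd24a with 469. In Lung, Cd24a led with 2587, and the others were at most 100.4. The lines thus shared Ncam1, Cd276 and Cd24a as antigens with many reads, whereas Sez6, L1cam and Sstr5 had many only in the 57SCLC groups among the tumor groups.

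**Figure D1:**
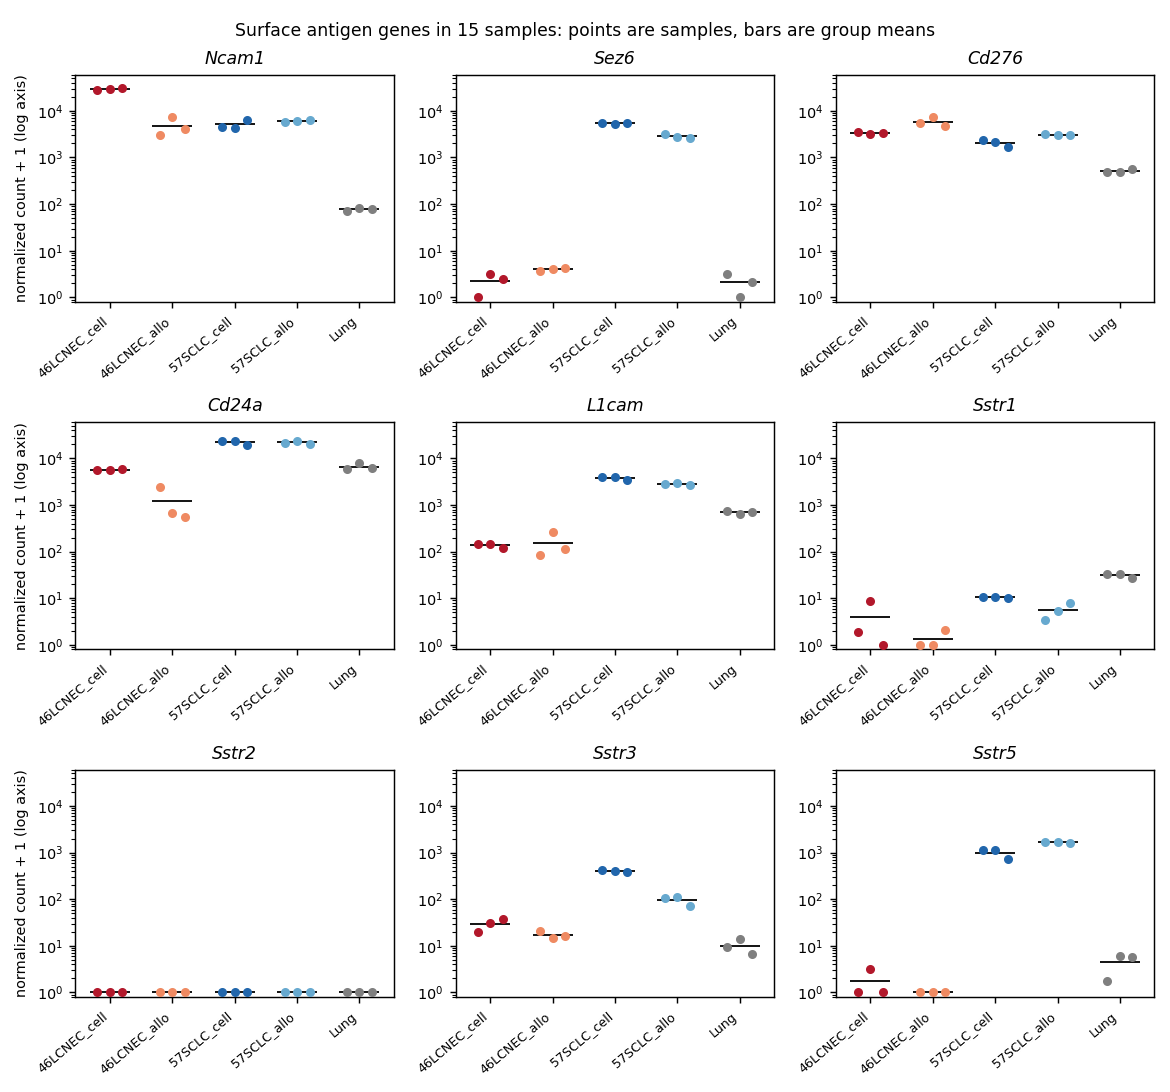
Each panel plots the normalized count + 1 of 1 gene on a log axis for 15 samples by group, with points for samples and bars for group means. Sez6 and Sstr5 are at 741 or more in every 57SCLC sample and at 4.99 or less elsewhere, Ncam1 is highest in 46LCNEC_cell, and Sstr2 is at 0 throughout.

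Each comparison was fitted with limma to log2(normalized count + 1) for every gene that reached 10 normalized counts in 3 or more of its 6 samples. Calls required an adjusted p (Benjamini-Hochberg) no higher than 0.01 together with a 2-fold change. On this scale, a log2 fold change understates the change of genes with low counts. Of the 6 members tested in 46LCNEC_cell against Lung, 3 were higher (Ncam1, Cd276 and Sstr3) and 2 lower (L1cam and Sstr1), with a median log2 fold change of 0.66 against -0.23 over all genes, where 20.6% of all genes tested were higher and 35.0% lower. In 46LCNEC_allo, 2 of 6 were higher (Ncam1 and Cd276) and 3 lower (Cd24a, L1cam and Sstr1), with 13.4% and 22.1% over all genes and medians of -0.75 and -0.14. Of these 5 calls, 3 were kept when any lung was left out. In 57SCLC_cell, 7 of 8 were higher and 1, Sstr1, was lower, against 21.1% and 32.7%, with a median of 3.92 against -0.12. In 57SCLC_allo, 7 of 8 were again higher and Sstr1 lower, against 18.9% and 26.9%, with a median of 2.93 against -0.087. These 4 comparisons share the same lungs. As members passed the filter where any group was high, their counts are given as a description.

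Between the lines in culture, 5 of 7 members tested were higher in 57SCLC_cell (Sez6, L1cam, Sstr3, Cd24a and Sstr5) and 1 in 46LCNEC_cell (Ncam1), where 23.9% of all genes were higher and 22.2% lower in 57SCLC_cell. The median over the 7 was 3.83. In allografts, the same 5 were higher in 57SCLC_allo and 0 of 7 were lower, against 16.1% and 14.2%, with a median of 4.34. When reads were scaled by library size alone, 3576 genes were higher and 1956 lower in 57SCLC_allo, where the size factors gave 2821 and 2491, and the median log2 fold change over all genes moved from 0.015 to 0.28. No call of a member changed. From cells to allografts, 2 of 5 members tested fell in 46LCNEC (Ncam1 and Cd24a) and 0 rose, against 8.45% and 14.4% of all genes. In 57SCLC, 1 of 7 fell (Sstr3) and 0 rose, against 2.29% and 14.4%. In the test of whether the line difference changed between cells and allografts, over 12 samples, 2 of 7 members were higher (Ncam1 and Cd24a) and 1 lower (Sez6), against 10.8% and 6.78%. Of these 3 calls, 1 was kept with edgeR, and 1 or 2 whenever a sample was left out, with Ncam1 called each time.

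**Figure D2:**
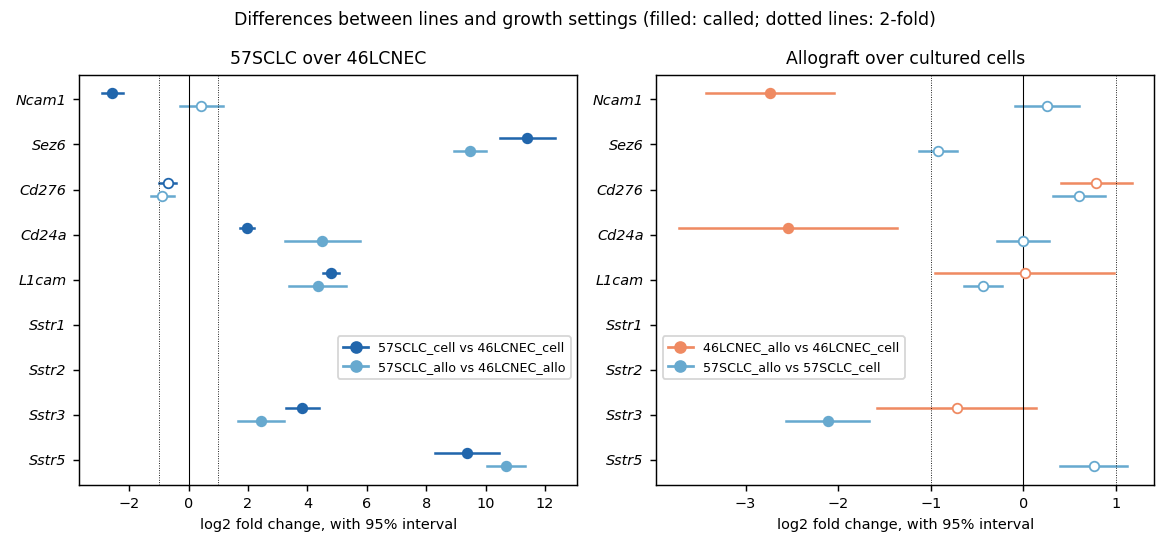
The left panel plots log2 fold changes of 57SCLC over 46LCNEC in cells and allografts, and the right panel those of allografts over cells in each line, with 95% intervals, filled points for called genes and dotted lines at 2-fold. Ncam1 lies at -2.57 between the lines in cells and at 0.42 in allografts, and Sstr1 and Sstr2 were not tested in these comparisons.

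The members that were higher in 57SCLC in culture and in allografts include L1cam and Sstr3, whose promoters are shown beside that of Cd276, which was not called between the lines. RefSeq promoter windows, from 250 bases before a gene's start to 50 after it on the GRCm38.p6 build, matched 4 of the 9 members: Cd276, L1cam, Sstr2 and Sstr3. For L1cam and Sstr3 the first of the listed starts is printed. Capitals mark the letters CAGCTG or CACCTG (E-boxes), GGGCGG (GC box), CCAAT and TGACGTCA (cAMP response element) on either strand, and no matches of different motifs overlap. The windows are written 5′ to 3′ on the strand of the gene.
Cd276 (chr9:58554984-58555283, minus strand): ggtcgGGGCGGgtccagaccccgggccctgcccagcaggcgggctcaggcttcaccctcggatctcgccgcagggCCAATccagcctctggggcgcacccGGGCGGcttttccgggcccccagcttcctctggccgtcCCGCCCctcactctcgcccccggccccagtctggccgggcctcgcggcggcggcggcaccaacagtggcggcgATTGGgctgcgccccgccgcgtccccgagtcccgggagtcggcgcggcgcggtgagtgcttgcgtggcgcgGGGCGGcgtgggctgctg
L1cam (chrX:73880741-73881040, minus strand): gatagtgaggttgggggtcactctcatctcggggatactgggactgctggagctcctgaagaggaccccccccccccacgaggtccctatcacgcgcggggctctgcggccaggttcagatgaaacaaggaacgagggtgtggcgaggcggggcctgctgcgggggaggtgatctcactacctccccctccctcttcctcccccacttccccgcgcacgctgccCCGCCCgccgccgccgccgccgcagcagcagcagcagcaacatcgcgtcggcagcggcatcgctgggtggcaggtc
Sstr3 (chr15:78544296-78544595, minus strand): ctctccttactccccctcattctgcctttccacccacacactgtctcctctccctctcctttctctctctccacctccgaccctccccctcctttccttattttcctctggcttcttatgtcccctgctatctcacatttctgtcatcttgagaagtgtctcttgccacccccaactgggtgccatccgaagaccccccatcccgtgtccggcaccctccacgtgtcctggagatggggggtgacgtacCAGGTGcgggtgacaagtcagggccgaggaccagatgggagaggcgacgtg

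The printed window of Cd276 held 4 GC boxes and 2 CCAAT matches, that of L1cam 1 GC box, and that of Sstr3 a single CACCTG E-box. These counts differed between starts of the same gene. The other L1cam window held 2 GC boxes and 1 CCAAT, and the other Sstr3 window 1 CCAAT and 0 E-boxes. The Sstr2 window, not printed as the gene was listed at 0, held 2 GC boxes and 1 TGACGTCA. The shares of all 32851 promoter windows with a match were 16.3% for CAGCTG, 20.2% for CACCTG, 35.7% for GGGCGG, 37.4% for CCAAT and 1.79% for TGACGTCA. The GC content of the printed windows was 78.3% for Cd276, 69.3% for L1cam and 58.7% for Sstr3, where the median window had 52.7%. A match is a description of the letters and not of a bound site.

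Ncam1 (CD56; ENSMUSG00000039542, chromosome 9, 49413436 to 49710357, minus strand, GRCm39) mediates adhesion between neural cells. It had 28614, 29684 and 31510 normalized counts in dishes A, B and C of 46LCNEC_cell, and 3058, 7384 and 4040 in tumors 312, 319 and 321 of 46LCNEC_allo. In 57SCLC_cell it had 4598, 4291 and 6449, and in tumors 275, 316 and 317 of 57SCLC_allo 5647, 6039 and 6376. Lung had 71.0, 79.8 and 77.3. All tumor samples were thus far above all lungs, and the 46LCNEC dishes were far above all other samples, while the other tumor groups overlapped. The log2 fold change over Lung was 8.60 in 46LCNEC_cell (standard error 0.077, adjusted p = 5.33e-11, limma), and from 5.87 to 6.29 in the other 3 tumor groups. Ncam1 was lower in 57SCLC_cell than in 46LCNEC_cell by a log2 fold change of -2.57 (95% interval -2.92 to -2.22, adjusted p = 1.50e-06, limma). In allografts the line difference was 0.42 (95% interval -0.31 to 1.14, adjusted p = 0.279, limma), which was not called.

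Ncam1 fell in 46LCNEC from cells to allografts, with a log2 fold change of -2.73 (95% interval -3.42 to -2.04, adjusted p = 0.000332, limma). In 57SCLC the change was 0.26 (95% interval -0.089 to 0.60), not called. The line difference changed by 2.99 between the growth settings (95% interval 2.20 to 3.78, adjusted p = 6.51e-05, limma). In bulk samples, fewer cells of a type and less RNA per cell cannot be told apart. The fibroblast markers of 46LCNEC_allo lay at 161918 or more against at most 10015 in 46LCNEC_cell, and their part in the result was not tested.

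Among 6 relatives of Ncam1 and L1cam, 5 were tested between the lines in cells and all 5 were higher in 57SCLC_cell, with a median log2 fold change of 7.98 against 0.00028 over all genes. In allografts 4 of 4 tested were higher, with a median of 6.71. Of all genes tested, 23.9% were higher and 22.2% lower in 57SCLC_cell, and 16.1% and 14.2% in 57SCLC_allo. These shares also apply to the lists below. Chl1, a close relative of L1cam, had 2399 ± 258 normalized counts in 57SCLC_cell and was at 0 in all dishes of 46LCNEC_cell. As allografts, 57SCLC_allo had 1585, 1799 and 1566 of Chl1, and tumors 312, 319 and 321 of 46LCNEC_allo had 130, 1.05 and 29.9. Lung had 38.1, 23.9 and 2.34. Nfasc, an adhesion molecule of axon initial segments and nodes, had 7384 ± 576 in 57SCLC_cell and 5794 ± 1091 in 57SCLC_allo, against 60.6 ± 4.80 and 30.2 ± 19.9 in 46LCNEC. Nrcam, another neuronal adhesion molecule, had 797 ± 132 and 778 ± 94.4 in 57SCLC and at most 10 reads in any 46LCNEC library. Ncam2, the nearest relative of Ncam1, showed the reverse order of Ncam1 in culture. It had 234, 229 and 749 normalized counts in flasks A, B and C of 57SCLC_cell, with flask C apart, and 2 reads in all 46LCNEC_cell dishes together. It fell to 29.9 ± 20.2 in 57SCLC_allo.

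Polysialic acid, a sugar polymer that weakens adhesion by Ncam1, is built by the enzymes St8sia2 and St8sia4. St8sia4 had 1610 ± 205 normalized counts in 57SCLC_cell and 1 read in all 46LCNEC_cell dishes, the group with most Ncam1, and Lung had 2129 ± 216. It rose in 46LCNEC_allo to 485 ± 43.2 and fell in 57SCLC_allo to 577 ± 25.5. St8sia2 had 269 ± 28.3 in 46LCNEC_cell, 902 ± 366 in 46LCNEC_allo, 1438 ± 206 in 57SCLC_cell and 1154 ± 66.4 in 57SCLC_allo. In this list of 11 enzymes and partners of Ncam1 and L1cam, 10 were tested in cells, of which 3 were higher and 3 lower in 57SCLC_cell, with a median of -0.48. In allografts 1 of 10 was higher and 3 were lower, with a median of -0.051, and Prnp was at 0 in all samples. Fgfr1, a growth factor receptor that binds Ncam1, had 4705 ± 116 in 46LCNEC_cell and 9936 ± 1085 in 46LCNEC_allo, against 5.08 ± 1.91 in 57SCLC_cell and 1144 ± 316 in 57SCLC_allo. Gdnf, a neurotrophic ligand, had 600.2 ± 88.4 in 46LCNEC_cell and 1 read in all 57SCLC_cell flasks, while its co-receptor Gfra1 was higher in 57SCLC_cell (223 ± 45.2 against 6.42 ± 4.45) and lower in 57SCLC_allo than in 46LCNEC_allo (202 ± 75.1 against 477 ± 79.4).

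L1cam (ENSMUSG00000031391, chromosome X, 72897378 to 72939711, minus strand) is an adhesion molecule that guides growing axons. Flasks A, B and C of 57SCLC_cell held 3979, 4006 and 3421 normalized counts, and tumors 275, 316 and 317 of 57SCLC_allo 2820, 2908 and 2675. Lung had 742, 645 and 706, and 46LCNEC_cell 142, 148 and 119. In 46LCNEC_allo, tumors 312, 319 and 321 had 83.4, 267 and 115. The order was thus 57SCLC, Lung and 46LCNEC, with the 46LCNEC groups overlapping each other and all other neighbors apart. Between the lines, the log2 fold change was 4.79 in cells (95% interval 4.53 to 5.06, adjusted p = 1.43e-08, limma) and 4.34 in allografts (95% interval 3.39 to 5.30, adjusted p = 0.000169, limma). Against Lung, L1cam was higher in 57SCLC_cell by a log2 fold change of 2.44 and lower in 46LCNEC_cell by one of -2.35. It was lower in 46LCNEC_allo by one of -2.34 (adjusted p = 0.00285, limma), a call lost when any of the lungs was left out (adjusted p from 0.0134 to 0.0162). Tumor 319, which had the most L1cam of its group, also had the largest fibroblast sum, and whether the reads came from host cells was not tested. From 57SCLC_cell to 57SCLC_allo the change was -0.44 (95% interval -0.64 to -0.23), under 2-fold. The change of 0.014 from 46LCNEC_cell to 46LCNEC_allo turned to -0.47 without tumor 319.

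Sez6 (ENSMUSG00000000632, chromosome 11, 77821626 to 77869874, plus strand) takes part in dendrite and synapse formation. Its level was 5548, 5331 and 5374 normalized counts in the flasks of 57SCLC_cell, and 3174, 2799 and 2641 in the tumors of 57SCLC_allo. The other samples held from 0 to 3 reads each, which gave 0, 2.21 and 1.54 normalized counts in 46LCNEC_cell, 2.65, 3.16 and 3.32 in 46LCNEC_allo and 2.24, 0 and 1.17 in Lung. Of all members, Sez6 and Sstr5 had the widest gap between the 57SCLC samples and all others. The mean of 57SCLC_cell was 4340 times that of 46LCNEC_cell, with a 95% counting interval of 1732 to 16276, and 4762 times that of Lung, with an interval of 1691 to 15889. In allografts the ratio was 944 (interval 464 to 2122). Such intervals cover counting error only. Both line differences were called (adjusted p = 8.52e-08 in cells and 4.13e-06 in allografts, limma).

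Sez6 was lower in 57SCLC_allo than in 57SCLC_cell, without overlap, by a log2 fold change of -0.92 (95% interval -1.12 to -0.72, adjusted p = 7.72e-05, limma), which stayed under the 2-fold threshold. The line difference was called as smaller in allografts by -1.92 (95% interval -2.99 to -0.86, adjusted p = 0.00888, limma). Of this, -0.92 was the change in 57SCLC, and the rest lay between 46LCNEC libraries of 0 to 3 reads. The call was lost with edgeR (adjusted p = 0.0264), with DESeq2 (adjusted p = 0.0308), with no filter (adjusted p = 0.0119), with a pseudocount of 0.1 (adjusted p = 0.0791), with all 15 samples in the fit (adjusted p = 0.0224) and in 10 of the 12 fits that left out 1 sample.

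Both relatives of Sez6 were higher in 57SCLC. The mean of Sez6l2 was 1946 ± 165 normalized counts in 57SCLC_cell and 1854 ± 109 in 57SCLC_allo, against 6.56 ± 1.92 in 46LCNEC_cell, 73.9 ± 23.0 in 46LCNEC_allo and 57.0 ± 10.99 in Lung. It rose from 46LCNEC_cell to 46LCNEC_allo, which Sez6 could not be tested for. Sez6l had 543, 499.98 and 1287 in flasks A, B and C of 57SCLC_cell and 366, 239 and 280.3 in 57SCLC_allo, with 57.5 ± 12.1 in Lung and at most 9 reads in any 46LCNEC library. The median log2 fold change of both relatives between the lines was 7.96 in cells and 5.69 in allografts.

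Cd276 (B7-H3; ENSMUSG00000035914, chromosome 9, 58431412 to 58463665, minus strand) is an immune regulatory protein of the B7 family. It had 3459, 3185 and 3318 normalized counts in 46LCNEC_cell, 5559, 7288 and 4677 in 46LCNEC_allo, 2315, 2169 and 1673 in 57SCLC_cell and 3126, 3065 and 3079 in 57SCLC_allo. Lung had 496, 493 and 556. Of the members with reads, Cd276 had the most even mean levels among the tumor groups, all of which were above all lungs, and no neighboring groups overlapped. Against Lung, its log2 fold change was 2.69 in 46LCNEC_cell, 3.48 in 46LCNEC_allo, 1.98 in 57SCLC_cell and 2.59 in 57SCLC_allo, with adjusted p-values of at most 1.60e-05 (limma). Between the lines it was -0.71 in cells (95% interval -0.99 to -0.42, adjusted p = 0.000942, limma) and -0.89 in allografts (95% interval -1.29 to -0.50, adjusted p = 0.00356, limma), under the 2-fold threshold in both. From cells to allografts it was 0.79 in 46LCNEC and 0.60 in 57SCLC, again under 2-fold (adjusted p = 0.00561 and 0.00510, limma), and the difference between these changes was -0.19 (95% interval -0.66 to 0.28). Without tumor 321, the line difference in allografts was called, with -1.04.

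The other B7 genes, unlike Cd276, were lower than in Lung in the tumor groups wherever they were called. Of 7, 6 were tested against Lung, and 5 were lower in 46LCNEC_cell, 3 in 46LCNEC_allo, 5 in 57SCLC_cell and 4 in 57SCLC_allo. Of all genes tested, 35.0%, 22.1%, 32.7% and 26.9% were lower in these comparisons. In each, 0 of the 6 were higher, against 20.6%, 13.4%, 21.1% and 18.9% of all genes. Medians were -4.51, -1.65, -4.69 and -1.27, against -0.23, -0.14, -0.12 and -0.087 over all genes. Vsir was at 0 in all samples. Lung held leukocytes, which carry several of these genes, and their part was not tested. Between the lines, Icosl, a ligand of the T cell costimulator Icos, was higher in 57SCLC_cell (544 ± 86.5 normalized counts) than in 46LCNEC_cell (29.5 ± 3.89), and 1 gene, Vtcn1, was lower in 57SCLC in cells and in allografts. Of 4 tested in cells the median was -0.25, and of 6 in allografts 0.18. Vtcn1 (B7-H4) had 16.1 ± 6.04 in 46LCNEC_cell, 31.4 ± 15.2 in 46LCNEC_allo and at most 12 reads in any 57SCLC library, against 137 ± 62.6 in Lung.

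Cd24a (ENSMUSG00000047139, chromosome 10, 43454280 to 43460264, plus strand) is also a marker of epithelial and immature blood cells. Flasks A, B and C held 23596, 23096 and 19268 normalized counts, and the 57SCLC tumors 20931, 24047 and 20770, the highest counts of any member in 57SCLC. Lung had 5859, 7882 and 6303, and 46LCNEC_cell 5542, 5532 and 5784. Tumors 312, 319 and 321 of 46LCNEC_allo had 2416, 658 and 563. The 57SCLC groups overlapped, and all were above Lung, while 46LCNEC_allo was below every other sample. Cd24a differed between the lines by a log2 fold change of 1.96 in cells (95% interval 1.74 to 2.19, adjusted p = 5.19e-07, limma) and 4.50 in allografts (95% interval 3.25 to 5.75, adjusted p = 0.000465, limma). Over Lung it was 1.72 in both 57SCLC groups, and -0.24 in 46LCNEC_cell (95% interval -0.48 to 0.0063, adjusted p = 0.0644, limma), which was not called.

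In 46LCNEC, Cd24a fell from cells to allografts by a log2 fold change of -2.54 (95% interval -3.72 to -1.37, adjusted p = 0.00468, limma). In 57SCLC the change was -0.0021 (95% interval -0.29 to 0.28). The test of the difference gave 2.54 (95% interval 1.30 to 3.78, adjusted p = 0.00446, limma). The fall in 46LCNEC missed the threshold with edgeR (adjusted p = 0.0133) and when any dish, tumor 319 or tumor 321 was left out (adjusted p from 0.0114 to 0.0233), and the difference between the lines' changes missed it with edgeR (adjusted p = 0.0136) and in 9 of 12 fits without 1 sample (adjusted p of at most 0.0132). The lower level of 46LCNEC_allo against Lung (log2 fold change -2.78, adjusted p = 0.00419, limma) also missed it with edgeR (adjusted p = 0.0110) and when any lung or tumor 319 was left out (adjusted p from 0.0133 to 0.0210). Fibroblast, leukocyte and endothelial marker sums were higher in 46LCNEC_allo than in 46LCNEC_cell without overlap, and their part in the fall was not tested.

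The receptors of Cd24a and of the related signal Cd47 were read beside it, as a list of 3. Siglecg, the mouse receptor of Cd24a, had 501 ± 42.4 normalized counts in Lung, 146 ± 6.43 in 46LCNEC_cell and 49.8 ± 17.4 in 46LCNEC_allo, and was at 0 in all flasks of 57SCLC_cell, with 29.1 ± 14.3 in 57SCLC_allo. Sirpa, the receptor of Cd47 on macrophages, had 9153 ± 822 in 46LCNEC_allo and 3463 ± 872 in 57SCLC_allo, against 638 ± 30.6 and 58.4 ± 23.6 in cells. Between the lines, 2 of 2 tested were lower in 57SCLC_cell, with a median of -5.35, and 1 of 3 in 57SCLC_allo, with a median of -0.79.

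Of the somatostatin receptors, Sstr3 had reads in all tumor groups, Sstr5 had many reads only in 57SCLC, Sstr1 had few reads, and Sstr2 was listed at 0. Sstr5 (ENSMUSG00000050824, chromosome 17, 25708847 to 25733577, minus strand) gave 1121, 1115 and 741 normalized counts in flasks A, B and C of 57SCLC_cell, with flask C below the others, and 1668, 1672 and 1625 in 57SCLC_allo. In 46LCNEC_cell it had 0, 2.21 and 0, in 46LCNEC_allo it was at 0 in all tumors, and in Lung it had 0.75, 4.99 and 4.68. Sstr5 thus had over 600 reads in every 57SCLC library and at most 5 in any other. The mean of 57SCLC_cell was 1349 times that of 46LCNEC_cell (95% counting interval 446 to 13304), and 57SCLC_allo was at least 417-fold higher than 46LCNEC_allo, taken against a floor of 3 reads per library. Against Lung, the ratio was 286 in 57SCLC_cell (interval 171 to 656) and 477 in 57SCLC_allo (interval 286 to 1101). These 4 differences were called, with adjusted p-values of at most 4.13e-06 (limma). From cells to allografts, the change of Sstr5 in 57SCLC was 0.76 (95% interval 0.40 to 1.13, adjusted p = 0.00574, limma), under 2-fold, and 0.57 without flask C.

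Sstr3 (ENSMUSG00000044933, chromosome 15, 78421208 to 78428886, minus strand), a receptor of neuronal primary cilia, was measured at 423, 405 and 379 normalized counts in the flasks of 57SCLC_cell and 103, 109 and 69.2 in 57SCLC_allo. In 46LCNEC_cell it had 18.8, 29.8 and 36.1, in 46LCNEC_allo 19.9, 13.7 and 15.5 and in Lung 8.22, 12.97 and 5.85. Unlike Sstr5, it was lower in the 57SCLC allografts than in the cells, and the 46LCNEC groups overlapped. The log2 fold change between the lines was 3.83 in cells (95% interval 3.27 to 4.39, adjusted p = 2.30e-06, limma) and 2.44 in allografts (95% interval 1.65 to 3.22, adjusted p = 0.000909, limma). In 57SCLC it fell from cells to allografts by -2.12 on the log2 scale (95% interval -2.57 to -1.66, adjusted p = 6.19e-05, limma), and in 46LCNEC the change was -0.72 (95% interval -1.57 to 0.13, adjusted p = 0.134, limma). The difference between these changes was -1.39 (adjusted p = 0.0171, limma), which was not called and passed with DESeq2 (adjusted p = 0.00755) and with a pseudocount of 5 (adjusted p = 0.00698). Sstr3 was higher than Lung in 46LCNEC_cell by 1.56 (adjusted p = 0.00321, limma), a call on at most 47 reads per library that was lost without dish B, dish C, CT3 or CT5.

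Sstr1 (ENSMUSG00000035431, chromosome 12, 58258494 to 58262824, plus strand) was highest in Lung, with 32.1, 31.9 and 26.9 normalized counts, from 23 to 43 reads. It had 9.82, 9.65 and 9.38 in 57SCLC_cell, 2.39, 4.25 and 6.81 in 57SCLC_allo, 0.94, 7.73 and 0 in 46LCNEC_cell and 0, 0 and 1.11 in 46LCNEC_allo. All lungs were above all tumor samples, and the 46LCNEC groups and 57SCLC_allo overlapped in part. The ratio to Lung was 0.317 in 57SCLC_cell (95% counting interval 0.219 to 0.443), 0.148 in 57SCLC_allo (interval 0.0756 to 0.312), 0.0952 in 46LCNEC_cell (interval 0.0335 to 0.163) and 0.0122 in 46LCNEC_allo (interval 0.000313 to 0.0713, from 1 read). The call in 57SCLC_cell (adjusted p = 0.000216, limma) was lost with all 15 samples in the fit (adjusted p = 0.0336), and that in 46LCNEC_cell (adjusted p = 0.000888, limma) with a pseudocount of 0.1 (adjusted p = 0.0109).

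**Figure D3:**
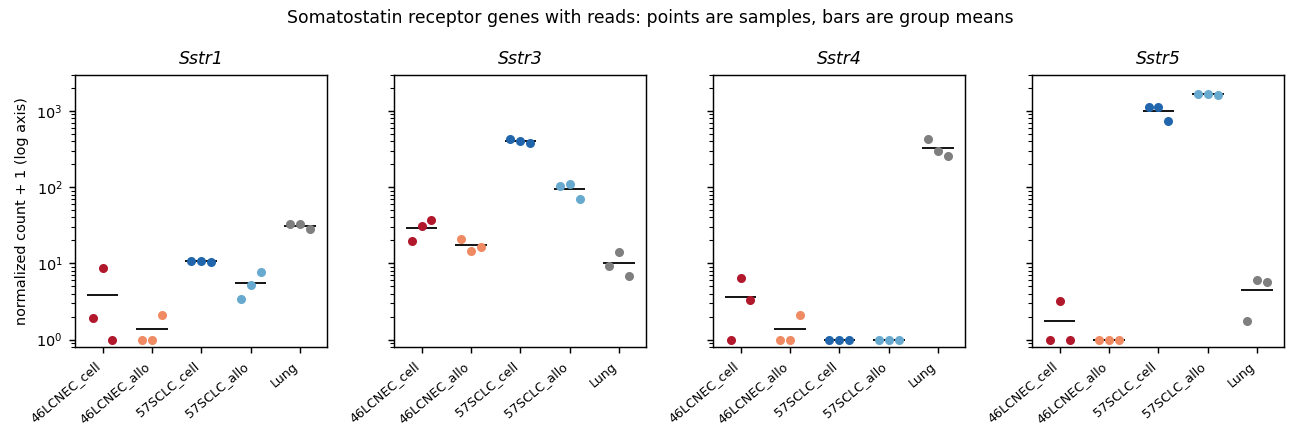
The panels plot the normalized count + 1 of the somatostatin receptor genes that had reads, on a shared log axis by group, with points for samples and bars for means. Sstr3 and Sstr5 are highest in 57SCLC, and Sstr1 and Sstr4 in Lung.

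Sstr2 (ENSMUSG00000047904, chromosome 11, 113510145 to 113516862, plus strand), the receptor that most clinical somatostatin analogs bind best, was listed at 0 in all 15 samples. This value cannot be read as no expression. For the protein, the authors reported SSTR2-positive cells by immunofluorescence in their cultured lines. The gene lies entirely inside the span of Slc39a11 on the opposite strand, in the GENCODE 39 annotation of GRCm39, and shares no exon with it. Of 1394 protein-coding genes that lie wholly inside the spans of other genes, 1011 (72.5%) were at 0 in all samples, against 375 of 10244 (3.66%) with a partial overlap and 2291 of 9989 (22.9%) with none. Of the 343 such genes that share no exon and have their host on the other strand, as Sstr2 does, 80.2% were at 0. B2m, Cox4i1, Rpl13, Hif1a and G6pdx, which most cells express, were at 0 in all 15 samples as well. Among other listed genes at 0 throughout, Vsir, Alas2 and Ms4a1 lay entirely inside other spans, and Itgam, Prnp and Acta1 over 99.9%, 53.0% and 12.6%. Sstr4, which had reads in Lung, lay entirely inside Thbd as well. Cd24a, L1cam, Ncam1 and Sstr5 overlapped other genes over 26.7%, 13.9%, 18.3% and 68.8% of their spans, Cd276 and Sez6 over 3.20% and 2.57%, and Sstr1 and Sstr3 over none, so that comparisons of level between members hold only within this limit. The counting settings for such reads are not given in the sources used here.

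**Figure D4:**
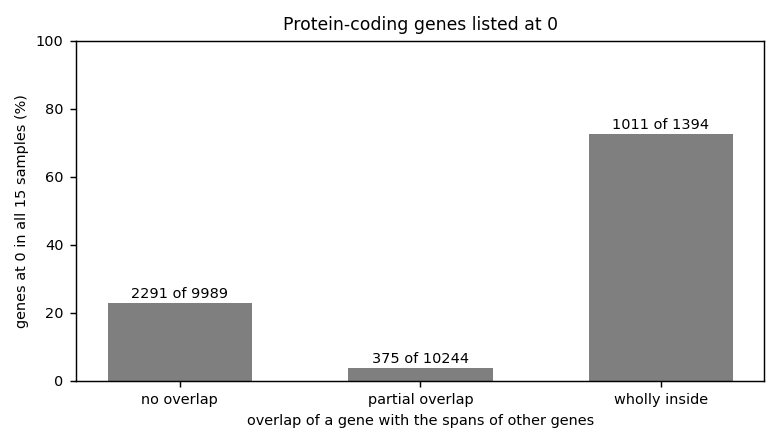
Bars show the percentage of protein-coding genes at 0 in all 15 samples by overlap with the spans of other genes, with the counts above the bars. The share is 22.9% with no overlap, 3.66% with a partial overlap and 72.5% for genes wholly inside other spans.

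The other genes of somatostatin signaling were read as a list of 15. Between the lines in cells, 13 were tested, of which 5 were higher in 57SCLC_cell and 1 lower, with a median of 0.33. In allografts 12 were tested, with 2 higher, 2 lower and a median of 0.22. Sst, which encodes the ligand, had at most 1 read in any library. Kcnj6, a potassium channel that opens on signals from inhibitory G proteins, averaged 899 ± 275 normalized counts in the 57SCLC flasks and 956 ± 310 in the 57SCLC tumors, against 9.15 ± 1.87 and 2.06 ± 1.99 in 46LCNEC. Its partner Kcnj3 had 60.6 ± 10.7 in 57SCLC_cell and at most 3 reads in any 57SCLC_allo or 46LCNEC library, and in Lung it was between 0 and 453 reads. Gnao1, a G protein subunit of neurons, had 8963 ± 414 and 8976 ± 1049 in 57SCLC and 1041 ± 126 and 2383 ± 822 in 46LCNEC. Gnai1, an inhibitory subunit, was higher in 57SCLC_cell (500.4 ± 203) than in 46LCNEC_cell (17.4 ± 4.49) and highest in Lung (1556 ± 113). Sstr4, the remaining receptor, had 433, 296 and 259 in Lung, was at 0 in all 57SCLC samples and had at most 5 reads in any 46LCNEC library.

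Of 20 other surface antigens studied as drug targets, 17 were tested between the lines. In cells 6 were higher and 8 lower in 57SCLC, with a median of -0.49, and in allografts 5 were higher and 5 lower, with a median of -0.27. Dll3, an inhibitory Notch ligand, followed Sez6 and Sstr5, with 812, 750.3 and 493 normalized counts in 57SCLC_cell, 1953, 2292 and 1812 in 57SCLC_allo and at most 7 reads elsewhere. Opposite to these in culture, Cd44, a hyaluronan receptor, had 15363 ± 1062 in 46LCNEC_cell and 2.40 ± 0.21 in 57SCLC_cell. Met, the receptor of hepatocyte growth factor, had 2584 ± 151 against 1 read in all flasks, and Msln, a mesothelial antigen, 4230 ± 180 against 1.57 ± 1.86. Tumors 312, 319 and 321 of 46LCNEC_allo had 3017, 17279 and 30720 for Met and 842, 22.1 and 1450 for Msln. For Cd44 they had 5340, 6843 and 6737. In 57SCLC_allo, Cd44 had 1080, 892 and 1195, Met 31.1, 58.0 and 82.8, and Msln at most 2.83. Cd44, Met and Msln were also called lower in 57SCLC_allo than in 46LCNEC_allo. Among 3 enzymes of disialoganglioside synthesis, which makes the antigen GD2, St8sia1 was higher in 57SCLC_cell (222 ± 96.6 against 1.82 ± 0.89) and in 57SCLC_allo (127 ± 10.9 against 16.3 ± 17.8). St3gal5 was higher in 46LCNEC_cell (2853 ± 153 against 1346 ± 37.0), and the list had medians of 0.75 in cells and 0.31 in allografts.

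Genes were ranked by the likeness of their group means to those of each member, as the root mean square difference of the centered log2 profiles over 5 groups among 14439 genes. Cd24a was nearest to Opcml, with a difference of 0.10, and Zfp286 (0.23), and L1cam to Slco5a1 (0.14) and Nkx6-2 (0.22). Ncam1 was nearest to Syt13 (0.58) and Bcat1 (0.63), and Cd276 to Rfc3 and Ndst3 (0.28 each). Sez6 was nearest to Chga (0.45), a granin of secretory vesicles, and Myt1 (0.46), Sstr5 to Ctnna2 (0.36) and Hrh3 (0.38), and Sstr3 to Adarb2 (0.44) and Scn1a (0.45). Among the members themselves, Cd24a and L1cam had the most similar profiles (1.02), followed by Sez6 and Sstr5 (1.24).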

How the data were processed

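RNA from 15 samples (5 groups of 3) was sequenced after poly-A selection. The authors used Rbowtie2 for alignment to GRCm39 and featureCounts with GENCODE release 27 for counting, and deposited a matrix of signal values, which are counts divided by DESeq2 size factors. Strand and multi-overlap settings are not given in the sources used here. Each sample's values were whole multiples of its smallest step, which gave back whole reads for 100% of values (tolerance 0.01). Reads per sample had a median of 26502525 and 25369 of 55359 genes were at 0 throughout.

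The main test was limma 3.58.1 (R 4.3.3) with a mean trend on log2(normalized count + 1), with Benjamini-Hochberg adjustment over all genes tested in a comparison. It was fitted to 6 samples for 8 comparisons and to 12 for the line by growth setting. The count tests edgeR 4.0.16 and DESeq2 1.42.0 were run on recovered reads as alternatives, beside other pseudocounts, no filter, library size scaling, all 15 samples and each sample left out. A looser adjusted p of 0.05 was also applied to the main fit. Scripts were tested on simulated data. Ratios on few reads carry exact 95% counting intervals, and a floor of 3 reads per library was used against groups at 0. Coordinates came from GENCODE 39, and other steps used Python 3.11.15.

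The members and lists were chosen with earlier results of these data known. All members were named. From each list of related genes, up to 4 with the largest change between the lines among called genes were named, plus Dll3, Sez6l, Sez6l2, Sst, Sstr4, St8sia2 and St8sia4. Genes named only for being at 0, and cell type markers, were outside that rule. Similar genes were the nearest 2 with a mean of at least 50 normalized counts in a group. Some items are not reported here.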

Additional observations from a re-analysis of the deposited data

Results flagged for a closer look

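For 3 members the difference between the lines was not the same in cells and allografts, by a test of that difference itself over 12 samples with limma. Ncam1 had a difference of 2.99 on the log2 scale (adjusted p = 6.51e-05), with all dishes of 46LCNEC_cell above all tumors of 46LCNEC_allo and the 57SCLC groups overlapping. Cd24a had 2.54 (adjusted p = 0.00446), with all tumors of 46LCNEC_allo below all dishes of 46LCNEC_cell and the 57SCLC groups overlapping. Sez6 had -1.92 (adjusted p = 0.00888), with all tumors of 57SCLC_allo below all flasks of 57SCLC_cell and at most 3 reads in any 46LCNEC library. The values for Cd24a and Sez6 missed the threshold with edgeR. Fibroblast, leukocyte and endothelial marker sums were higher in allografts than in cells of both lines, and their part in these differences was not tested. The fibroblast list does not mark host cells alone, as it summed to 9621 or more in the dishes of 46LCNEC_cell.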

How the results depend on the processing

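Over 495 results of single members with another setting, 481 kept direction and side of the threshold, 10 lost the call, 3 gained it and 1 turned in sign. These settings include a looser adjusted p of 0.05 on the main fit, which was no refit and could not lose a call or turn a sign. It gave the gain of Sstr3 for the line by growth setting (adjusted p = 0.0171, limma). Over 408 refits that left out 1 sample, these numbers were 365, 35, 1 and 7. In the comparisons of 57SCLC with 46LCNEC, in culture or as tumors, 0 of these results, with another setting or without a sample, lost a call. Of 2 members called from 46LCNEC_cell to 46LCNEC_allo, 1 was called with edgeR, and 1 to 2 when a sample was left out. Of 3 called for the line by growth setting, 1 was called with edgeR, and 1 to 2 when a sample was left out. Of 5 called in 46LCNEC_allo against Lung, 3 to 5 were called when a sample was left out. Signs turned for 3 changes, none of them called in these refits. L1cam from 46LCNEC_cell to 46LCNEC_allo was -0.039 with library size scaling and ran from -0.47 to 0.37 when a sample was left out. Cd24a from 57SCLC_cell to 57SCLC_allo ran from -0.094 to 0.052, and L1cam for the line by growth setting, at -0.45 with all samples, from -0.81 to 0.027. Over all genes, 2355 were higher and 1383 lower in 46LCNEC_allo than in 46LCNEC_cell, against 1659 and 769 without dish C. The causes were not tested, although each left-out sample also reduced the number of samples.

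Culture letters did not pair the lines: deviations of same-letter cultures correlated at 0.24, -0.31 and 0.016. With the letter as a replicate block, 6 members were called between the lines in cells, as without it. Sstr1 had few reads, at most 43 in any library, and Sstr2 was listed at 0 in all 15 samples. The part of depth or of the counting in these values was not tested.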
